A study of Mus musculus with 12 samples.

Results

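The 2B1 cell line, described in the labels as an otic vesicle line, was compared with the tissue it is named for, to see which otic, epithelial, neural and mesenchymal genes it keeps or lacks. The comparison used 6 of the 12 arrays of the series, chosen by their titles. They were 2 cultures of 2B1 transfected with an empty vector that carried GFP, and 4 pools of wild-type mouse otic vesicles, 2 taken at embryonic day 10 (E10) and 2 at E10.5. Cells had been grown at 32 °C with gamma-interferon, then transfected transiently and kept at 37 °C without it for 4 days before RNA was taken. Each vesicle pool held 4 to 8 vesicles that had been treated with dispase at 1 mg/ml to free them of mesenchyme. The labels give the genotype of the vesicles as wild-type and that of the line as not applicable, and they do not say how the line was made, whether it is 1 clone, or the strain of the embryos. The labels call the cultures independent and the vesicle pools biological replicates. The number of arrays, 2 cultures against 4 pools, limits the precision.

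The otic vesicle, or otocyst, is a closed epithelial sac that pinches off from the surface ectoderm beside the hindbrain and gives rise to the whole membranous inner ear. Its cells are joined by E-cadherin, claudins and keratin-based desmosomes, and regions of it are marked out by homeobox, T-box and paired-box transcription factors. Some of its cells leave the epithelium as neuroblasts of the vestibular and auditory ganglia, and the sac is wrapped in periotic mesenchyme, which forms the capsule around it. Epithelial cells that lose these junctions and take on vimentin, fibrillar collagens and smooth muscle actin are said to take on a mesenchymal state, and factors of the Snail, Zeb and Twist families are known to drive that switch.

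The deposited values of the line and the vesicles are on different scales, with mean log2 values of 5.76 and 5.82 in the cultures and 6.10 to 6.11 in the vesicles, so log2 levels were not set against each other. Each array was instead converted to percentile ranks, from 0 for its dimmest of 45101 probe sets to 100 for its brightest, and differences are given in percentile points, line minus the mean of both vesicle stages. Ranks crowd together at the top, where a large change in signal moves a gene by few points. A level for unused genes was taken from 44 probe sets of olfactory receptor genes, whose 95th percentile lay at 58.1 and 55.9 in the cultures and at 51.1 to 59.6 in the vesicles. A gene above that floor on all 6 arrays is called kept, one above it in 4 of 4 vesicle pools and 0 of 2 cultures lacked, and one above it in 2 of 2 cultures and 0 of 4 pools gained. These classes are descriptions without a test, and a dim probe set can miss the floor although its gene is used. A gene above the floor need not be used either. Of the 39 olfactory receptor genes themselves, 1 was kept, 1 lacked and 2 gained. Tissue, culture, transfection and processing set all differ between the groups and cannot be told apart, and in bulk RNA fewer cells of a type and less RNA per cell cannot be told apart either.

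Spearman correlations of the deposited values over all probe sets were 0.839 to 0.849 between line and vesicle arrays, 0.981 between both cultures and 0.966 to 0.995 among the vesicle arrays. The E10 replicate 1 vesicle array stood apart, with an SD of 2.32 against 2.46 to 2.47 in the other vesicle arrays and the highest floor, and line replicate 1 had an SD of 2.19 against 2.30. In limma 9581 of 18194 genes passed an adjusted p of 0.05, 52.7% of all, with 25.1% higher and 27.5% lower in the line. With a size of 20 points or more required as well, 13.3% passed, 5.81% higher and 7.51% lower. This stricter call is the one used for the counts below, unless limma alone is named. By the floor, 47.6% of genes were kept, 5.00% lacked and 2.91% gained, while 27.5% were below it on all arrays and 17.0% were mixed.

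**Figure D1:**
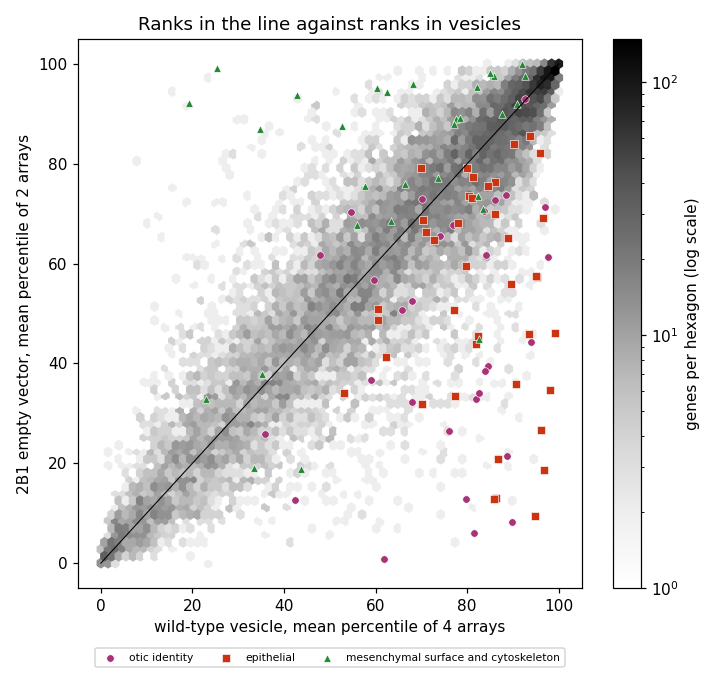
Mean percentile rank in the 2 empty vector cultures (vertical axis) against that in the 4 wild-type vesicle arrays (horizontal axis) for 18194 genes, with the count of genes per hexagon in grey on a log scale and the diagonal as equality. Otic identity genes (circles) and epithelial genes (squares) reach far below the diagonal, and mesenchymal surface and cytoskeleton genes (triangles) lie mostly above it.

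Of 187 measured genes in the 6 lists of otic, epithelial, neural and mesenchymal genes, 69 were kept, 39 lacked and 10 gained. Without E10 replicate 1 there were 81 kept, 53 lacked and 10 gained. The kept count also rests on which probe set stands for a gene. With the mean over all probe sets of a gene in its place, an alternative chosen after the data were seen, 40 were kept, 37 lacked and 10 gained. Of the 69 kept genes 11, or 15.9%, had a further probe set that was lacked. Among all 8666 kept genes the share was 5.14%.

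**Figure D2:**
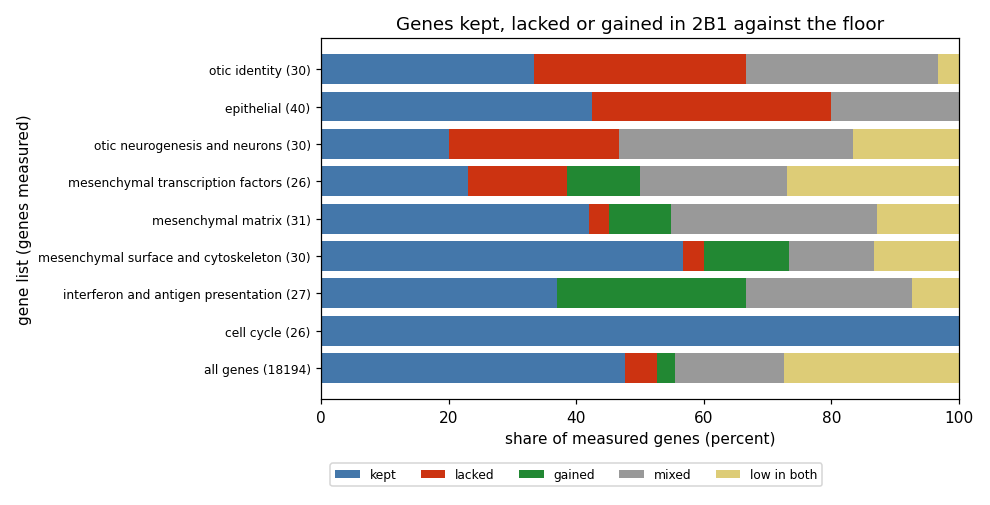
Share of measured genes, in percent, that were kept, lacked, gained, mixed or low in both, for 8 gene lists and for all genes, with the number measured in brackets. Lacked genes (red) take up 10 of 30 in otic identity and 15 of 40 in the epithelial list against 5.00% of all genes, and gained genes (green) are seen in the mesenchymal and interferon lists.

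Otic identity genes were lower in the line. Of 30 measured, 17 fell by 20 points or more and 0 rose by as much (7.51% and 5.81% of all genes), and the median difference was -24.0 points against 0.02 for all genes. By the floor 10 were lacked, 10 kept and 0 gained (5.00%, 47.6% and 2.91% of all genes). Tbx1, a T-box factor gene needed for otocyst patterning and growth, ranked at 6.82 and 9.84 in the line, 87.6 and 89.1 in E10 vesicles and 90.8 and 91.3 in E10.5 vesicles, a fall to a rank near the bottom of the array (-81.4 points, SE 1.15, limma adjusted p = 6.25e-05). Gbx2, a homeobox gene of the dorsal otocyst, ranked at 7.84 and 4.17 in the line, 78.7 and 84.7 in E10 vesicles and 81.7 and 80.5 in E10.5 vesicles (-75.4 points, SE 2.22, limma adjusted p = 0.00022). Tbx2 (-66.8 points, SE 1.36) and Tbx3 (-49.6 points, SE 1.25), further T-box genes of the otic epithelium, fell with it, as did the zinc finger gene Zbtb16 (-67.3 points, SE 2.10). The other probe sets of Tbx3 gave -41.0, -38.6, -2.23 and 1.28 points, and those of Zbtb16 gave -45.4 and -2.75.

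Early markers of the otic field were among the lacked genes. Pax8, a paired-box gene of the otic placode, ranked at 33.1 and 32.7 in the line, 87.9 and 86.9 in E10 vesicles and 77.3 and 75.6 in E10.5 vesicles (-49.0 points, SE 0.79, limma adjusted p = 7.55e-05). Eya1, a transcriptional co-activator gene whose loss stops inner ear formation, ranked at 41.9 and 37.2 in the line, 86.6 and 86.9 in E10 vesicles and 82.5 and 82.4 in E10.5 vesicles (-45.1 points, SE 1.51, limma adjusted p = 0.000279). Lmx1a, a LIM homeobox gene of the non-sensory otic epithelium, ranked at 37.7 and 39.2 in the line, 82.1 and 83.4 in E10 vesicles and 85.1 and 85.1 in E10.5 vesicles (-45.5 points, SE 0.81, limma adjusted p = 8.47e-05). In all 3 genes each culture lay below each vesicle array, as in 34.0% of all genes. Other probe sets gave 0.54 points for Pax8, and -33.8 and -0.35 points for Eya1. Hmx3, a homeobox gene of the dorsolateral otocyst, was at 1.39 and 0.06 in the line, 55.0 and 61.4 in E10 vesicles and 64.7 and 66.1 in E10.5 vesicles, and it counted as mixed because E10 replicate 1 was under the floor (-61.1 points, SE 2.11, limma adjusted p = 0.000292). Dlx5 itself ranked at 34.7 and 38.5 in the line, 58.8 and 61.0 in E10 vesicles and 58.2 and 58.1 in E10.5 vesicles (-22.4 points, SE 1.44, limma adjusted p = 0.00109), also mixed, and its neighbour Dlx6 was below the floor on all 6 arrays.

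Some otic genes were kept at a lower rank. Oc90, which encodes the main otoconial protein and marks the otocyst, ranked at 64.7 and 57.8 in the line, 94.9 and 97.1 in E10 vesicles and 99.4 and 99.3 in E10.5 vesicles (-36.5 points, SE 2.26, limma adjusted p = 0.00101). In line replicate 2 Oc90 was close to the floor of 55.9 and under the 99th percentile of olfactory receptor sets, at 62.1. Sox10, a gene of otic epithelium and neural crest, ranked at 73.8 and 68.9 in the line, 95.8 and 96.6 in E10 vesicles and 97.8 and 97.6 in E10.5 vesicles (-25.6 points, SE 1.59, limma adjusted p = 0.00101), and a further probe set of it lay at a mean of 47.4 in the line against 85.5 in vesicles. Fgfr2 (-22.3 points), a receptor gene, Bmp7 (-14.7) and Bmp4 (-13.0), ligand genes, and Msx1 (-13.3), a BMP-responsive homeobox gene, fell as well and stayed above the floor. The difference of Bmp7 was -9.56 points without line replicate 2, and its call was lost without any 1 of the 4 vesicle arrays (limma adjusted p = 0.0588 to 0.0761). Other probe sets of Bmp7 and Fgfr2 were lacked, at -48.2 and -43.2 points.

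Fbxo2 and Six4 were kept and did not pass. Fbxo2, a ubiquitin ligase subunit gene that is abundant in the inner ear, ranked at 92.8 and 93.0 in the line, 89.6 and 91.9 in E10 vesicles and 94.6 and 94.5 in E10.5 vesicles, with overlapping groups (0.21 points, SE 0.86, limma adjusted p = 0.852). Six4, which encodes a homeobox partner of Eya proteins, ranked at 71.5 and 74.6 in the line, 70.5 and 71.1 in E10 vesicles and 71.0 and 68.1 in E10.5 vesicles (2.85 points, SE 1.39, limma adjusted p = 0.158), and the mean over its 4 probe sets gave -3.58 points. Dlx3 was higher in the line, from 52.9 to 55.6 in vesicles to 74.9 and 65.8 (15.8 points, SE 2.91, limma adjusted p = 0.0144), under the size of 20 points.

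Prosensory and Notch genes moved both ways. Of 19 measured genes 8 were kept, 1 was lacked and 0 were gained, against 47.6%, 5.00% and 2.91% of all genes. By 20 points or more 2 rose and 4 fell (5.81% and 7.51% of all genes), and the median difference was -3.50 points. Sox2, the transcription factor gene of the prosensory domain, ranked at 91.9 and 90.9 at E10, 87.4 and 88.1 at E10.5, and 58.9 and 66.7 in 2B1 cells (-26.8 points, SE 2.45, limma adjusted p = 0.00243). Hey2, a Notch effector gene, was at 56.9 and 55.3 at E10, 56.9 and 56.0 at E10.5, and 8.85 and 2.18 in 2B1 cells (-50.8 points, SE 2.16, limma adjusted p = 0.000458), and the ligand gene Dll1 was lacked (-23.5 points, SE 2.26). The receptor gene Notch2 rose (33.6 points, SE 4.24), while the ligand gene Jag1 stood at -4.08 points and the effector gene Hes1 at -3.78, and neither passed (limma adjusted p = 0.122 and 0.331). Of 23 genes of hair cells and the later inner ear, 13 were below the floor on all arrays (27.5% of all genes). Of these 23, 4 were kept (47.6% of all genes) and 0 were lacked (5.00%). The 1 gene that fell by 20 points or more was Otog, which encodes otogelin of the inner ear's acellular membranes (98.6 and 98.2 at E10, 99.2 and 99.2 at E10.5, and 74.3 and 74.5 in 2B1 cells), and it was kept.

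Epithelial genes were lower in the line as well. Of 40 measured, 22 fell by 20 points or more and 0 rose by as much (7.51% and 5.81% of all genes). By the floor 15 were lacked, 17 kept and 0 gained (5.00%, 47.6% and 2.91% of all genes). The median difference was -22.3 points. In 34 of 40 both cultures ranked below every vesicle array, where 34.0% of all genes did. Tight junction genes differed in size. Marveld2, which encodes tricellulin, ranked at 14.1 and 4.68 in the line, 95.6 and 94.5 in E10 vesicles and 94.2 and 94.5 in E10.5 vesicles (-85.3 points, SE 2.91, limma adjusted p = 0.000287). Cldn7 ranked at 17.7 and 19.8 in the line, 95.9 and 96.7 in E10 vesicles and 97.3 and 97.0 in E10.5 vesicles (-78.0 points, SE 0.87, limma adjusted p = 4.79e-05), and Cldn4 (-52.9 points, SE 1.95) and Cldn6 (-33.6, SE 0.90) were lacked too. Ocln, the occludin gene, was lacked with a smaller fall (-11.9 points, SE 1.82), and Cldn3 was kept (-9.78, SE 1.38), with 3 other probe sets at -31.8 to -40.3 points.

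Krt18 and Krt8 encode the partner keratins of simple epithelia. Krt18 ranked at 27.4 and 26.1 in the line, 94.4 and 95.6 in E10 vesicles and 97.0 and 97.0 in E10.5 vesicles (-69.3 points, SE 0.75, limma adjusted p = 4.79e-05), and Krt8 at 45.7 and 46.1 in the line, 91.1 and 93.4 in E10 vesicles and 94.7 and 94.5 in E10.5 vesicles (-47.5 points, SE 0.88, limma adjusted p = 8.95e-05). The other 2 probe sets of Krt8 gave -50.9 and -55.3 points. Keratins as a family, read after values were seen, did not move one way. Of 48 measured, 2 rose and 6 fell by 20 points or more (5.81% and 7.51% of all genes). Below the floor on all arrays were 23 (27.5% of all genes), and the median difference was 2.75 points. Krt80 was gained (26.9 points, SE 1.60) and Krt10 was kept and rose (4.49 points, SE 0.54). Among desmosome genes, Dsp, the desmoplakin gene, fell by 65.8 points (SE 2.00), Perp by 73.0 (SE 1.80) and Dsc2, a desmocollin gene, by 43.8 (SE 1.61), while the plakophilin genes Pkp2 (-8.14 points, SE 0.82) and Pkp3 (-13.8, SE 0.76) fell and were kept. Jup, which encodes plakoglobin, a protein of desmosomes and of cadherin junctions alike, was kept and was higher in the line (9.09 points, SE 1.17, limma adjusted p = 0.0056).

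Cdh1, the E-cadherin gene, ranked at 42.6 and 45.3 in the line, 83.9 and 81.0 in E10 vesicles and 81.7 and 81.6 in E10.5 vesicles, a fall below the floor in both cultures (-38.1 points, SE 1.31, limma adjusted p = 0.000291). Esrp1, a splicing regulator gene restricted to epithelia, ranked at 17.7 and 8.37 in the line, 87.1 and 87.2 in E10 vesicles and 85.2 and 85.7 in E10.5 vesicles (-73.3 points, SE 2.88, limma adjusted p = 0.00038), and the serine protease gene Prss8 fell by 63.4 points (SE 1.58). Grhl2, a transcription factor gene that maintains epithelial junctions, ranked at 81.8 and 72.9 in the line, 81.1 and 79.7 in E10 vesicles and 82.3 and 81.7 in E10.5 vesicles and its groups overlapped (-3.86 points, SE 2.81, limma adjusted p = 0.311). Among kept genes the fall reached 27.4 points for the protease gene St14 and 23.7 for Cdh3, the P-cadherin gene. Of the 17 kept genes 5 had another probe set that was lacked, namely Epcam, Cldn3, Dsg2, Crb3 and Cxadr. That is 29.4%, against 5.14% of all kept genes. The chosen probe set of Epcam, an adhesion molecule gene, gave -6.88 points, and its other probe set averaged 32.9 in the line against 72.2 in vesicles. With the mean over probe sets 8 epithelial genes were kept.

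Promoter sequences of lacked epithelial genes are shown because the list fell together and most of its promoters hold a short motif. The 6 bases CACCTG, read on either strand (CAGGTG on the other), form the E-box that Snail and Zeb proteins are known to bind. RefSeq promoters of 300 bases in the GRCm38.p6 build, taken around a transcription start, were at hand for 24 of the 40 measured epithelial genes. A promoter with the motif was found for 20 of the 24, or 83.3%, against 22.6% of 27025 genes and 20.2% of 32851 promoters in all. It was present for 9 of 10 lacked and for 7 of 9 kept epithelial genes, and for 3 of 19 genes of mesenchymal matrix. In the otic identity list, which also fell, it was present for 4 of 17 genes, or 23.5%, close to the share of all genes. There it was present for 2 of 4 lacked and 2 of 7 kept genes. A link between the motif and the falls was not tested. A match describes the letters only. The lacked genes with the largest falls among those with a sequence were Marveld2 (chr13:100616922-100617221, minus strand), Cldn7 (chr11:69965171-69965470, plus strand), Krt18 (chr15:102027966-102028265, plus strand) and Dsp (chr13:38151044-38151343, plus strand). Capitals mark the motif, whose first base lies at 44 relative to the start in Marveld2, at -97 and -57 in Cldn7, at -214 in Krt18 and at 4 in Dsp. Marveld2 and Cldn7 each have 2 listed starts, of which 1 is printed. The other Marveld2 promoter overlaps it and holds the same motif, at 17, and the other Cldn7 promoter holds none.
Marveld2: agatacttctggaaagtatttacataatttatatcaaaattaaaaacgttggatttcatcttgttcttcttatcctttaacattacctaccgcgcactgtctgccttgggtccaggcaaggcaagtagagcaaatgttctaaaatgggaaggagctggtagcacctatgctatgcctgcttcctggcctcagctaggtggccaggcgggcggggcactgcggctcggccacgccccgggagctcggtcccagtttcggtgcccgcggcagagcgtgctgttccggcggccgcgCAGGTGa
Cldn7: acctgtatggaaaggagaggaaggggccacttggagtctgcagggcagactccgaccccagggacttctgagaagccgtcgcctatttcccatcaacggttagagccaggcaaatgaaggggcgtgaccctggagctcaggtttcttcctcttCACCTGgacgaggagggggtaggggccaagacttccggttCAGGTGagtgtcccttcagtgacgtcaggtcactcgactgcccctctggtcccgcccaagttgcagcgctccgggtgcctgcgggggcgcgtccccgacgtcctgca
Krt18: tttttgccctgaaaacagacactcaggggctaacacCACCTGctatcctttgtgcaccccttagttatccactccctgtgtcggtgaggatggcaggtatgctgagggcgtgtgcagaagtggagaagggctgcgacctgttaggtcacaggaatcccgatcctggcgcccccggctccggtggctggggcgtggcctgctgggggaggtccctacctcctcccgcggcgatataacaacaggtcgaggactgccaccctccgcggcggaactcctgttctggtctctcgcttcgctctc
Dsp: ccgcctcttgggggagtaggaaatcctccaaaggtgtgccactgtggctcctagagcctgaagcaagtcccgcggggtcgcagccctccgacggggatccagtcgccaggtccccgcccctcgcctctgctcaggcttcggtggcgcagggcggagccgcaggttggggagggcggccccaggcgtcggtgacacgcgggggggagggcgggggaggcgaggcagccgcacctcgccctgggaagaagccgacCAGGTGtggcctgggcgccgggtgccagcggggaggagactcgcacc

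Genes of otic neurogenesis and of neurons fell in part. Of 30 measured, 14 fell by 20 points or more and 0 rose by as much (7.51% and 5.81% of all genes). By the floor 8 were lacked, 6 kept and 0 gained (5.00%, 47.6% and 2.91% of all genes). The median difference was -15.9 points. Neurod1, a basic helix-loop-helix gene needed by otic neuroblasts, ranked at 19.3 and 22.9 in the line, 90.9 and 87.7 in E10 vesicles and 83.5 and 84.0 in E10.5 vesicles (-65.4 points, SE 1.57, limma adjusted p = 0.000153). Insm1, a zinc finger gene of delaminating neuroblasts, ranked at 32.0 and 31.1 in the line, 71.6 and 71.1 in E10 vesicles and 74.5 and 73.9 in E10.5 vesicles (-41.2 points, SE 0.64, limma adjusted p = 7.21e-05). A second probe set moved from a mean of 94.1 in vesicles to 3.03. Pou4f1, a sensory neuron factor gene, fell by 47.9 points (SE 4.06), and Nrcam, a neuronal adhesion gene, by 77.2 (SE 2.17). Other probe sets of Nrcam gave -40.8, -13.6 and 2.41 points.

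Nefl, the neurofilament light chain gene, varied widely among the vesicle arrays and ranked at 9.14 and 9.44 in the line, 36.8 and 74.4 in E10 vesicles and 93.2 and 93.6 in E10.5 vesicles (-65.2 points, SE 11.40, limma adjusted p = 0.0125). Both cultures lay below every vesicle array, and E10 replicate 1 was itself under the floor. The other probe set of Nefl gave -28.5 points. Kept genes of the list included Tubb3, the neuronal tubulin gene (81.6 and 88.2 at E10, 95.6 and 95.5 at E10.5, and 73.4 and 79.0 in 2B1 cells), whose call was lost without line replicate 1 (limma adjusted p = 0.0729), without E10.5 replicate 1 (0.0597) or without E10.5 replicate 2 (0.0595). With 1 culture or 1 pool left in a group, that sample is assumed to vary like the other groups. Gap43, a growth cone gene, fell by 21.6 points (SE 1.75) and was kept. Ntrk2, a neurotrophin receptor gene, ranked at 76.3 and 72.6 in the line, 77.6 and 73.7 in E10 vesicles and 73.4 and 75.2 in E10.5 vesicles with overlapping groups, and another of its probe sets gave -32.7 points. Among 18 genes of neural progenitors and glia 1 fell by 20 points or more and 3 rose (7.51% and 5.81% of all genes). Their median difference was -0.43 points. The neuregulin receptor gene Erbb3 was lacked (92.2 and 92.4 at E10, 94.1 and 93.9 at E10.5, and 37.9 and 37.4 in 2B1 cells), and its other probe set gave -16.7 points. Tfap2b, a neural crest and kidney transcription factor gene, was gained (27.2 and 35.2 at E10, 34.5 and 39.5 at E10.5, and 84.7 and 85.2 in 2B1 cells).

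Mesenchymal transcription factor genes moved both ways. Of 26 measured, 8 rose and 4 fell by 20 points or more, against 5.81% and 7.51% of all genes. By the floor 3 were gained, 4 lacked and 6 kept (2.91%, 5.00% and 47.6% of all genes). The median difference was 4.38 points, and 1.59 without line replicate 1. Foxf1, a forkhead gene of visceral and lateral mesoderm, ranked at 91.8 and 91.8 in the line, 53.1 and 43.2 in E10 vesicles and 48.2 and 44.0 in E10.5 vesicles (44.6 points, SE 3.29, limma adjusted p = 0.00149). A further probe set of it gave 8.50 points and did not pass (limma adjusted p = 0.0518). Twist2 (28.1 points, SE 1.17), a basic helix-loop-helix gene of mesenchyme, and Osr1 (26.4, SE 1.20), a gene of intermediate and lateral mesoderm, were gained too.

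Of the factors known to repress epithelial genes, Twist1 ranked at 93.5 and 93.0 in the line, 68.3 and 73.6 in E10 vesicles and 75.9 and 73.9 in E10.5 vesicles (20.3 points, SE 1.79, limma adjusted p = 0.00224). Snai2, which encodes Slug, ranked at 98.8 and 98.8 in the line, 80.3 and 84.7 in E10 vesicles and 78.1 and 78.7 in E10.5 vesicles (18.3 points, SE 1.45, limma adjusted p = 0.00176). A second probe set moved from a mean of 34.0 to 90.7. Zeb2 was at 90.4 and 88.8 in the line, 22.7 and 57.3 in E10 vesicles and 48.6 and 56.6 in E10.5 vesicles, with every vesicle array lower than both cultures (43.4 points, SE 10.76, limma adjusted p = 0.0322). Its other probe sets gave 33.4, 32.3, 0.98 and -0.45 points. Zeb1 went the other way, at 45.9 and 50.7 in the line, 65.1 and 64.2 in E10 vesicles and 65.6 and 63.1 in E10.5 vesicles (-16.2 points, SE 1.74, limma adjusted p = 0.00362). Other probe sets of Zeb1 gave -17.7, -2.03 and -0.74 points. Snai1 rose by 9.65 points with overlapping groups (limma adjusted p = 0.0461). Periotic mesenchyme genes did not move together. Prrx1 rose by 23.7 points (SE 2.45) and Tbx18 by 22.7 (SE 4.81), Prrx2 fell by 37.4 (SE 1.29) and Foxd1 by 66.9 (SE 4.83), and Pou3f4, whose loss causes deafness, was below the floor on all 6 arrays.

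Matrix genes of mesenchyme rose more often than they fell. Of 31 measured, 10 rose and 2 fell by 20 points or more (5.81% and 7.51% of all genes). By the floor 13 were kept, 3 gained and 1 lacked (47.6%, 2.91% and 5.00% of all genes). A further 4 were low in both and 10 mixed (27.5% and 17.0% of all genes), and the median difference was 5.33 points. Col1a1, a chain of type I collagen, ranked at 99.7 and 99.6 in the line, 53.5 and 60.4 in E10 vesicles and 73.1 and 71.3 in E10.5 vesicles (35.1 points, SE 2.21, limma adjusted p = 0.00105). Tnc, the tenascin C gene, ranked at 73.2 and 72.2 in the line, 14.7 and 16.4 in E10 vesicles and 16.7 and 21.4 in E10.5 vesicles (55.4 points, SE 1.63, limma adjusted p = 0.000217), and Thbs1, the thrombospondin gene, at 86.0 and 87.5 in the line, 27.2 and 34.2 in E10 vesicles and 47.1 and 46.9 in E10.5 vesicles (47.9 points, SE 2.21, limma adjusted p = 0.000537). The other probe set of Tnc gave 16.9 points. These 3 genes were higher in both cultures than in any vesicle array, as were 32.6% of all genes.

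Several matrix genes ranked near the top in both. Fn1, the fibronectin gene, ranked at 97.9 and 98.0 in the line, 98.4 and 98.0 in E10 vesicles and 98.3 and 98.3 in E10.5 vesicles, and Col6a1 at 98.5 and 98.7 in the line, 98.9 and 99.1 in E10 vesicles and 99.5 and 99.5 in E10.5 vesicles. Sparc, a collagen-binding matrix gene, was at 99.8 and 99.8 in the line, 89.5 and 95.3 in E10 vesicles and 98.9 and 98.95 in E10.5 vesicles (4.09 points, SE 1.82, limma adjusted p = 0.133), and passed without E10 replicate 1 (limma adjusted p = 0.0261) or without E10 replicate 2 (0.00662). On the common log2 scale Sparc was 2.43 higher in the line. Lum, a proteoglycan gene of periotic mesenchyme, went the other way, at 20.3 and 27.2 in the line, 47.0 and 68.8 in E10 vesicles and 84.6 and 84.5 in E10.5 vesicles (-47.5 points, SE 6.94, limma adjusted p = 0.0078), and the crosslinking enzyme gene Loxl1 was lacked (-35.9 points, SE 2.92).

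Surface and cytoskeleton genes of mesenchyme were mostly higher in the line. Of 30 measured, 21 were higher in limma, where 25.1% of all genes were. By 20 points or more 8 rose and 2 fell (5.81% and 7.51% of all genes). By the floor 17 were kept, 4 gained and 1 lacked (47.6%, 2.91% and 5.00% of all genes). The median difference was 10.8 points. S100a4, a calcium-binding protein gene also called fibroblast-specific protein, ranked at 99.1 and 99.1 in the line, 35.0 and 24.4 in E10 vesicles and 20.5 and 22.0 in E10.5 vesicles (73.7 points, SE 3.28, limma adjusted p = 0.000504). Cd44, the hyaluronan receptor gene, ranked at 92.2 and 92.2 in the line, 19.5 and 28.4 in E10 vesicles and 14.9 and 14.3 in E10.5 vesicles (73.0 points, SE 2.75, limma adjusted p = 0.000343). Axl, a receptor tyrosine kinase gene (52.3 points, SE 1.15), and Cav1, the caveolin gene (50.8, SE 1.41), were gained as well. Other probe sets gave 65.3, 39.6 and 9.76 points for Cd44 and -0.47 for Axl.

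Of the genes of contractile fibres, Acta2 and Tagln were kept and rose. Acta2, smooth muscle actin, ranked at 94.3 and 94.3 in the line, 69.7 and 62.0 in E10 vesicles and 57.8 and 60.7 in E10.5 vesicles (31.8 points, SE 2.56, limma adjusted p = 0.00182), and Tagln, transgelin, rose by 27.8 points (SE 0.87). Other probe sets of Acta2 gave 11.05 and 2.74 points. Tpm2, a tropomyosin gene, was kept and did not pass (1.14 points, SE 0.58, limma adjusted p = 0.174). Vim, vimentin, ranked at 97.5 and 97.8 in the line, 82.7 and 83.9 in E10 vesicles and 88.6 and 88.2 in E10.5 vesicles (11.8 points, SE 0.65, limma adjusted p = 0.000777). Cdh2, the N-cadherin gene, rose by 11.4 points (SE 1.53), while Cdh11, another mesenchymal cadherin gene, was kept at 90.1 and 89.6 in the line, 89.5 and 89.8 in E10 vesicles and 85.9 and 85.1 in E10.5 vesicles, with overlapping groups. The other probe set of Cdh11 was lower in the line, at a mean of 19.85 against 40.2 in vesicles (-20.4 points). Ngfr, the low-affinity neurotrophin receptor gene, was lacked (76.4 and 79.6 at E10, 87.2 and 86.9 at E10.5, and 46.8 and 43.0 in 2B1 cells). Thy1 and Cnn1, the smooth muscle calponin gene, were below the floor on all 6 arrays.

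**Figure D3:**
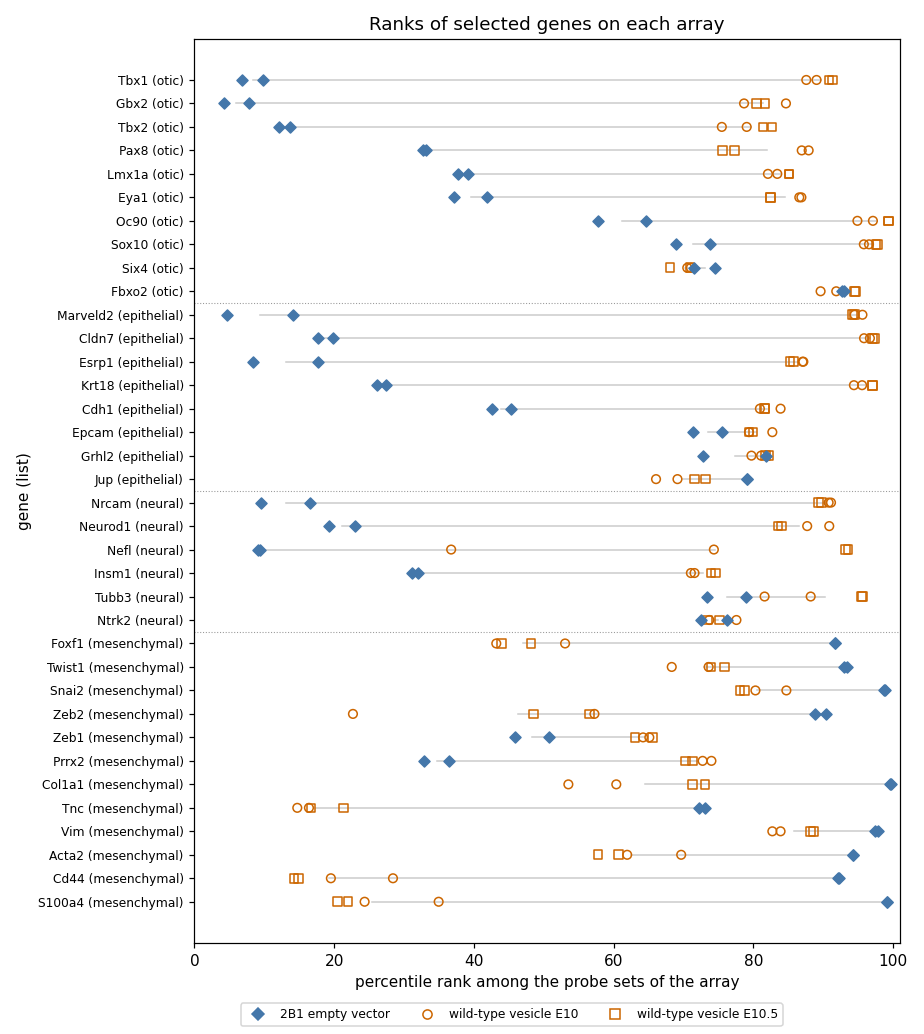
Percentile rank on each array (horizontal axis) of 36 genes of the otic, epithelial, neural and mesenchymal lists, with the 2 empty vector cultures as diamonds, E10 wild-type vesicles as circles and E10.5 wild-type vesicles as squares, and a grey line joining the means. Tbx1, Cldn7 and Nrcam lie below 20 in both cultures and above 85 in every vesicle array, and Cd44 and S100a4 lie above 90 in both cultures and below 40 in every vesicle array.

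Markers of other cells that a dissected vesicle can hold were read beside these lists. Over 11 blood genes the median rank was 60.0 to 71.3 in the vesicles and 42.3 and 40.6 in the cultures. The medians of all genes were 65.6 to 66.4 in the vesicles and 65.2 and 64.9 in the cultures. Of the 11, 4 were lacked (5.00% of all genes), and 7 fell and 1 rose by 20 points or more (7.51% and 5.81%). The gene that rose was the adult globin gene Hba-a1 (34.0 and 30.7 at E10, 26.3 and 27.5 at E10.5, and 57.2 and 58.5 in 2B1 cells). The falls included the embryonic globin genes Hbb-y (95.2 and 98.3 at E10, 99.2 and 99.3 at E10.5, and 35.5 and 25.7 in 2B1 cells) and Hba-x (78.3 and 88.0 at E10, 95.3 and 95.2 at E10.5, and 43.2 and 44.9 in 2B1 cells). Of 15 endothelial genes 6 fell by 20 points or more and 1 was lacked (7.51% and 5.00% of all genes). The lacked gene was the transcription factor gene Erg (73.8 and 69.2 at E10, 69.7 and 72.9 at E10.5, and 27.6 and 34.4 in 2B1 cells), whose other probe set gave -9.30 points. Cdh5, the defining cadherin gene, was below the floor on all 6 arrays and still fell (-20.3 points). The 3 kept endothelial genes did not pass, with differences of -3.13 points for Kdr, a VEGF receptor gene, -1.86 for Egfl7 and 0.94 for Esam. The median ranks of the matrix list, at 57.7 and 63.4 at E10 and 74.3 and 73.0 at E10.5, lay above the floor in 3 of the 4 vesicle pools. Those of all genes were 65.6 and 65.6 at E10 and 66.2 and 66.4 at E10.5. Which cells of the pools made the matrix transcripts was not tested. The part of these other cells in the differences between line and vesicle was not tested. Of 12 macrophage genes 3 were kept and 1 was gained, against 47.6% and 2.91% of all genes. In limma 3 were higher and 3 lower (25.1% and 27.5% of all genes). Cd14 was gained (25.8 points, SE 3.80), and Csf1r was kept and rose (14.5 points, SE 1.71). Other probe sets of Csf1r gave -10.8 and 5.35 points. The defining gene Ptprc was below the floor on all arrays.

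The line was also read for other mesenchymal fates. Of 12 muscle genes 1 was kept and 1 gained (47.6% and 2.91% of all genes). The gained gene was Tnnt2, the cardiac troponin T gene (23.4 and 23.9 at E10, 36.5 and 34.6 at E10.5, and 86.9 and 89.2 in 2B1 cells). Other probe sets of Tnnt2 gave 75.1 and -9.01 points. The muscle regulators Myod1, Myf5 and Myf6 were below the floor on all arrays. Of 14 genes of cartilage, bone and fat 8 were below the floor on all arrays (27.5% of all genes). Col2a1, the cartilage collagen gene that the otic epithelium also uses, was mixed, at 59.9 and 51.2 in the line, 99.5 and 99.6 in E10 vesicles and 99.9 and 99.9 in E10.5 vesicles (-44.2 points, SE 2.67, limma adjusted p = 0.00095). Lpl, the lipoprotein lipase gene, was gained (50.0 points, SE 1.96). Of 7 melanocyte genes Kit was lacked (-34.2 points, SE 2.02) and Dct fell by 23.4 points (SE 3.30).

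**Figure D4:**
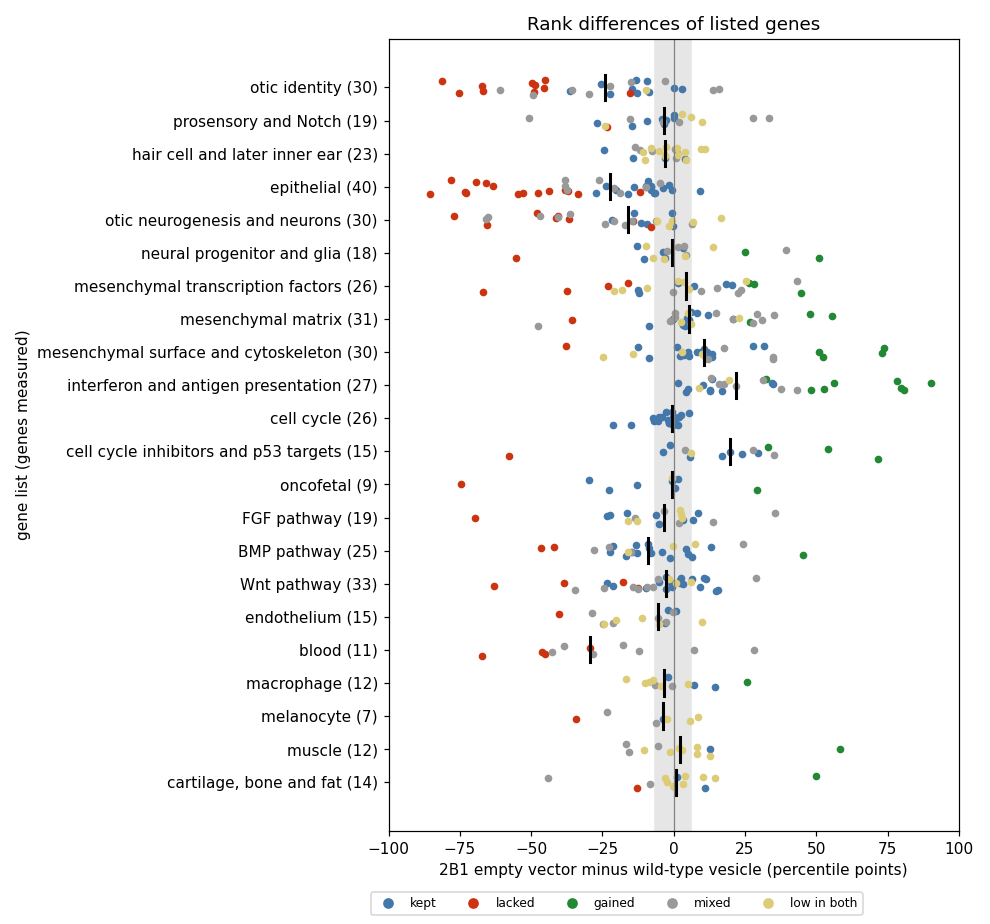
Difference in percentile rank, empty vector line minus wild-type vesicle, for each measured gene (points) of 22 lists, coloured by class, with the list median as a black bar and the interquartile range of all genes as a grey band. The medians of the otic identity, epithelial, neurogenesis and blood lists lie at -24.0, -22.3, -15.9 and -29.2 points, that of neural progenitor and glia genes at -0.43, and that of the interferon list at 22.0 points.

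The FGF, BMP and Wnt lists, genes of the signals that shape the otocyst, are read against all genes, of which 47.6% were kept, 5.81% rose and 7.51% fell by 20 points or more. In the FGF list 8 of 19 genes were kept, 1 rose and 3 fell by 20 points or more, and Etv5, a transcription factor gene induced by FGF signals, was lacked (89.0 and 89.2 at E10, 88.7 and 89.4 at E10.5, and 19.6 and 19.2 in 2B1 cells). Other probe sets of Etv5 gave -39.3 and -21.7 points. The ligand gene Fgf9 fell (-23.5 points, SE 0.59) and the mesenchymal ligand gene Fgf7 rose (35.5, SE 4.04). Fgfr1, a receptor gene, was kept and rose by 6.69 points (SE 1.44). In the BMP list 15 of 25 genes were kept, 2 rose and 6 fell by 20 points or more, and the median difference was -8.94 points. The ligand gene Bmp6 (-46.6 points, SE 3.15) and the receptor gene Bmpr1b (-41.9, SE 1.56) were lacked, and the antagonist gene Grem1 was gained (55.2 and 39.8 at E10, 37.1 and 37.9 at E10.5, and 87.5 and 88.2 in 2B1 cells). Another probe set of Bmpr1b gave 12.8 points. In the Wnt list 18 of 33 genes were kept, and 1 rose and 6 fell by 20 points or more. The 4 lacked genes included the target gene Sp5 (95.1 and 93.4 at E10, 90.6 and 91.2 at E10.5, and 31.4 and 27.8 in 2B1 cells) and the receptor gene Fzd3 (-38.4 points, SE 3.20). The target gene Axin2 was kept, with a difference of 3.26 points that did not pass (limma adjusted p = 0.326).

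Interferon and antigen presentation genes ranked higher in the line, 4 days after gamma-interferon had been withdrawn. Of 27 measured, 27 had a positive difference, where 9118 of all 18194 genes did. In limma 24 were higher, 13 of these by 20 points or more (25.1% and 5.81% of all genes). By the floor 8 were gained, 10 kept and 0 lacked (2.91%, 47.6% and 5.00% of all genes). The median difference was 22.0 points. Gbp3 and Gbp2 encode guanylate-binding proteins. Gbp3 ranked at 95.4 and 94.4 in the line, 2.30 and 5.34 in E10 vesicles and 5.27 and 5.23 in E10.5 vesicles, the largest rise of all genes that passed (90.4 points, SE 1.11, limma adjusted p = 5.11e-05), and Gbp2 at 88.5 and 89.8 in the line, 8.61 and 9.13 in E10 vesicles and 7.53 and 8.07 in E10.5 vesicles (80.8 points, SE 0.69, limma adjusted p = 4.79e-05). Ifit1, which encodes an RNA-binding antiviral protein, ranked at 94.1 and 95.3 in the line, 16.6 and 14.1 in E10 vesicles and 14.4 and 15.1 in E10.5 vesicles (79.7 points, SE 1.04, limma adjusted p = 5.42e-05). The class I gene H2-K1 ranked at 99.9 and 99.9 in the line, 95.8 and 95.5 in E10 vesicles and 95.2 and 95.4 in E10.5 vesicles (limma adjusted p = 0.00489). No untreated culture was analysed here, so the growth conditions and the line cannot be told apart.

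All 26 measured cell cycle genes were kept, against 47.6% of all genes, with a median difference of -0.71 points. In limma 2 were higher and 8 lower, where 25.1% and 27.5% of all genes were. Only 1 fell by 20 points or more, against 7.51% of all genes. In 15 both cultures ranked below every vesicle array, where 34.0% of all genes did. Tyms, the thymidylate synthase gene, ranked at 60.9 and 60.8 in the line, 82.7 and 84.5 in E10 vesicles and 80.9 and 80.1 in E10.5 vesicles, close to the floor in the line (-21.2 points, SE 0.79, limma adjusted p = 0.000328), and 3 dimmer probe sets of it gave 1.63 to 5.28 points. Ccnb2, a mitotic cyclin gene (-14.8 points, SE 1.23), Aurkb, a mitotic kinase gene (-7.34, SE 0.59), and Mcm3, a replication helicase gene (-6.81, SE 0.54), fell too, and the mean over probe sets of Mcm3 gave 0.31 points. Mki67, a marker of cycling cells, ranked at 88.7 and 90.1 in the line, 91.8 and 92.6 in E10 vesicles and 89.0 and 90.1 in E10.5 vesicles, and did not pass (limma adjusted p = 0.183). Among inhibitors of the cycle and p53 targets, 7 of 15 rose and 1 fell by 20 points or more (5.81% and 7.51% of all genes). Cdkn2a, which encodes p16 and Arf, ranked at 97.3 and 97.5 in the line, 30.2 and 24.9 in E10 vesicles and 23.6 and 24.1 in E10.5 vesicles (71.7 points, SE 1.70, limma adjusted p = 0.000152), and Cdkn2b, which encodes p15, at 97.1 and 97.3 in the line, 40.5 and 45.1 in E10 vesicles and 39.5 and 47.2 in E10.5 vesicles (54.1 points, SE 2.77, limma adjusted p = 0.000663). Cdkn1c, which encodes p57, was lacked, at 27.0 and 33.3 in the line, 85.1 and 86.6 in E10 vesicles and 89.7 and 89.9 in E10.5 vesicles (-57.7 points, SE 2.03, limma adjusted p = 0.000302). The p53 target genes Ccng1 (35.3 points, SE 1.25) and Mdm2 (23.8, SE 2.88) rose, and Cdkn1a was kept (92.3 and 93.5 at E10, 94.9 and 94.8 at E10.5, and 99.6 and 99.6 in 2B1 cells).

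Of 9 oncofetal genes 6 were kept, 1 lacked and 1 gained (47.6%, 5.00% and 2.91% of all genes). By 20 points or more 1 rose and 3 fell (5.81% and 7.51% of all genes). Lin28a, the RNA-binding gene of early embryonic cells, ranked at 23.7 and 17.2 in the line, 98.1 and 96.7 in E10 vesicles and 92.6 and 93.0 in E10.5 vesicles (-74.7 points, SE 2.10, limma adjusted p = 0.0002). Igf2bp1 and Hmga2, further embryonic genes, did not pass, with differences of 0.33 and 1.38 points. Igf2, a fetal growth factor gene, fell (-29.8 points, SE 0.75; another probe set -1.84) and Dlk1, which encodes a Notch-like membrane protein, rose (29.0, SE 3.31).

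Over all genes, the largest falls were headed by Zic1, a zinc finger factor gene of the neural plate border, at 2.32 and 4.03 in the line, 91.1 and 92.5 in E10 vesicles and 94.0 and 93.5 in E10.5 vesicles (-89.6 points, SE 0.86, limma adjusted p = 4.79e-05). Zfp711, Bex4, Amph, Marveld2, Srsf12, Plch1, Slitrk6, Dpyd and Snhg14 followed, at -86.7 to -83.2 points. Amph encodes amphiphysin, and Slitrk6 a transmembrane protein that is known for its part in inner ear innervation. Slitrk6 ranked at 1.39 and 0.49 in the line, 91.4 and 87.4 in E10 vesicles and 80.2 and 81.6 in E10.5 vesicles (-84.2 points, SE 1.39, limma adjusted p = 7.77e-05). The largest rises after Gbp3 were those of the serpin genes Serpinb1b and Serpinb1a, the necroptosis gene Mlkl, Otud1, Gbp2, Ifit1, the calcium-binding gene S100a6, the caspase gene Casp12 and the homeobox gene Hoxc8, at 85.8 to 78.5 points. S100a6 ranked at 96.8 and 97.3 in the line, 12.7 and 17.0 in E10 vesicles and 19.7 and 21.6 in E10.5 vesicles (79.3 points, SE 1.51, limma adjusted p = 9.47e-05).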

How the data were processed

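Each sample was hybridised to an Affymetrix mouse genome array. Log2 expression of 45101 probe sets was taken from the deposited table. RMA and Affymetrix Expression Console are listed in the submitters' processing notes; versions and the normalization sets are not given there. Values were ranked within each array, which assumes nothing about a common scale. Only the 34958 probe sets annotated to a single gene were used (932 had several genes, 9211 none). Symbols were updated through RefSeq GRCm38.p6 (34754 by gene identifier, 1 by accession, 203 left as given), which gave 18194 genes. Where a gene had several probe sets (9012 genes), the one with the highest mean of line and vesicle ranks was used, a choice that favours sets bright in both. The line was compared with the mean of both stages by limma 3.58.1 (R 4.3.3) on ranks, with 3 residual degrees of freedom and Benjamini-Hochberg adjustment over all genes at 0.05, after the fit had been tested on simulated data. P-values measure only the spread between these cultures and pools. Members and lists were chosen with earlier results of these data known. Named genes were the 10 largest rises and falls and, in each list, kept, lacked or gained genes with the largest differences (up to 8 in 6 lists, up to 4 in the others) with up to 4 kept genes that ranked highest in the line. Mixed genes and other list members named beside them were chosen after their values were seen. Scanner files and detection calls were not used.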

Additional observations from a re-analysis of the deposited data

How the results depend on the processing

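Ranks hold no signal over background, the line and the vesicles cannot be separated from their processing sets, and 2 cultures against 4 pools leave few degrees of freedom. Against E10 vesicles alone 5657 genes were called, with fewer arrays, and with probe sets tested singly 17563 were called, 5032 of them by 20 points or more. With a size of 1 on the log2 scale in place of 20 points, 5868 genes passed on a common distribution and 6109 on median-centred values. Leaving out 1 array gave 6218 to 9855 called genes, with 6288 without E10.5 replicate 1 and 6218 without E10.5 replicate 2, and 2155 to 2447 by 20 points or more. A sample left alone in its group is assumed there to vary like the other groups. With the replicate number as a block 8848 genes were called, 2390 by 20 points or more. The replicate numbers do not pair cultures with embryos, and replicate differences correlated at 0.22, -0.01 and -0.04 between groups. In the 6 lists 40 genes were kept, 37 lacked and 10 gained with the mean over probe sets. With 1 array left out 69 to 81 were kept, 39 to 53 lacked and 10 to 11 gained. The counts also rest on the floor. At the 99th percentile of olfactory receptor sets 56 were kept, 35 lacked and 16 gained, and at their 90th percentile 74, 37 and 8. With the floor at the 50th percentile of the array 86 were kept, 36 lacked and 10 gained.

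Among named genes and list medians, differences close to 0 changed sign, and the cause was not tested. On median-centred log2 values Fbxo2 was at -0.47, Tcf4 at -0.13 and Sox5 at -0.23. Against E10 alone Espn was at 0.70, Stmn2 at 2.34, Cd68 at 1.99 and Pmel at 2.12 points. Against E10.5 alone Fbxo2 was at -1.67, Esam at -0.31 and Ntrk2 at 0.13. With the Dlx5-transfected cultures added, Fbxo2 was at -0.23 and Esam at -0.86. With these in place of the empty vector Fbxo2 was at -0.67, Esam at -2.67, Slc26a4 at -2.39 and the muscle median at -0.64. With the mean over probe sets, an alternative chosen after seeing the data, Six4 was at -3.58, Tpm1 at -1.73, Sox5 at -5.90, Mcm3 at 0.31 and Egfl7 at 5.31. With the probe set chosen by vesicle level Laptm5 was at -0.77. With 1 array left out, Fbxo2 ranged from -0.34 to 0.77, Crb3 from -3.01 to 1.69, Ntrk2 from -2.40 to 1.33, Esam from -0.27 to 2.16 and the muscle median from -0.15 to 4.62.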

Other observations

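The Hox genes, which mark position along the body axis, were read as a family after Hoxc8 had appeared among the largest rises, so they were chosen after their values were seen. Of 33 measured Hox genes 12 rose by 20 points or more and 1 fell, where 5.81% and 7.51% of all genes did, 12 were gained against 2.91% of all genes, and 12 were below the floor on all arrays. The median difference was 14.2 points. Hoxc8 ranked at 82.4 and 83.9 in the line, 4.86 and 4.18 in E10 vesicles and 5.49 and 4.15 in E10.5 vesicles (78.5 points, SE 0.83, limma adjusted p = 4.79e-05). Hoxc10 ranked at 93.2 and 93.3 in the line, 23.2 and 21.5 in E10 vesicles and 16.7 and 15.7 in E10.5 vesicles (74.0 points, SE 0.80, limma adjusted p = 4.79e-05), and Hoxb13, the last gene of its cluster, at 91.5 and 91.5 in the line, 23.6 and 30.5 in E10 vesicles and 30.5 and 30.9 in E10.5 vesicles (62.6 points, SE 2.13, limma adjusted p = 0.000288). In each of these 3 genes the cultures lay far above every vesicle array. Both cultures lay above every vesicle array in 27 of the 33 Hox genes and in 32.6% of all genes.

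The rises are given here by cluster. In the B cluster Hoxb4 (42.9 points), Hoxb5 (60.1), Hoxb6 (68.5) and Hoxb9 (56.8) rose, and Hoxb1 was below the floor on all arrays. In the C cluster Hoxc4 (35.0), Hoxc5 (30.9), Hoxc9 (24.1) and Hoxc13 (33.1) rose beside Hoxc8 and Hoxc10. In the A cluster Hoxa11 rose (30.8), and Hoxa7 and Hoxa9 were kept. In the D cluster 0 genes rose by 20 points, and Hoxd8 fell (-23.8) while under the floor on all arrays. Among 6 Dlx genes, Dlx2 rose (33.8 points, SE 8.34) and Dlx1 was kept, at 99.2 and 99.2 in the line, 90.6 and 90.7 in E10 vesicles and 90.7 and 90.3 in E10.5 vesicles.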
